A study of Xenopus tropicalis with 6 samples.

Results

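The genes examined here encode the nuclear-coded subunits of the mitochondrial respiratory chain and ATP synthase, with factors that build these complexes. They were picked by name, taking every gene whose symbol begins with nduf, uqcr, cyc1, cycs, atp5, sdha to sdhd, or cox followed by a digit. This gave 102 of the 23634 genes in the table. The rule uses names and not measured values, although it was set with earlier results of these data known. By name, 36 encode subunits of complex I (NADH dehydrogenase), 4 of complex II (succinate dehydrogenase), 8 of complex III (cytochrome bc1), 14 of complex IV (cytochrome c oxidase) and 16 of complex V (ATP synthase). A further 20 encode assembly factors, 1 encodes cytochrome c, and 3 (atp5s, atp5sl and the inhibitor atp5if1) fit none of these classes. Against the RefSeq annotation of Xenopus tropicalis, 97 of the names matched a gene symbol, 4 matched an older synonym and 1, atp5sl, had no match. The names atp5c1, atp5g3 and atp5j2 are synonyms of genes that also have a row of their own, and each row is counted as a gene here.

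RNA was sequenced from whole Nigerian strain Xenopus tropicalis embryos at mid-neurula Stage 16. The 3 n1-src morphant samples came from embryos injected with 10 ng of a pair of splice-blocking antisense morpholinos, AMO A and AMO D, which target the microexon that sets the neuronal kinase isoform N1-SRC apart from the ubiquitous C-SRC. The 3 control samples came from embryos that received the same amount of standard control morpholino. All were raised in the same medium, and the samples carry replicate numbers 1 to 3 in each group, called sets here. The authors describe the embryos as siblings, without saying whether this holds across sets or only within each set. Each morphant sample was compared with the control sample of its own set. Embryos were extracted whole, so neural tissue, where N1-SRC is made, is averaged with all other tissue. How many embryos made up a sample, and whether the sets were separate clutches, is not stated, so the p-values measure only the spread between these samples.

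Expression values were TPM, a unit in which the reads assigned to a gene are divided by its length and the results are then scaled so that all samples share a single total. TPM keeps no record of sequencing depth, so the precision of single values is unknown. A gene was tested with limma if its morphant or control mean reached 1 TPM. The fit used log2(TPM + 0.5), with the set as a block, and p-values were adjusted over all 13382 genes that passed. On this scale the difference of a gene with low TPM is understated. Of the 102 genes, 99 were tested. The other 3 were cox15, which acts in haem A synthesis and had 0.625, 0.87 and 0.905 TPM in morphants against 0.795, 0.933 and 0.485 TPM in controls, and the genes for the subunit isoforms cox6a2 and cox7a1, which were listed at 0 in all 6 samples.

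Complexes I to IV lie in the inner mitochondrial membrane. Electrons from NADH enter at complex I and those from succinate at complex II, pass through ubiquinone to complex III, travel on the small soluble protein cytochrome c to complex IV, and reduce oxygen there. Complexes I, III and IV pump protons as they do so, and ATP synthase lets the protons back through its membrane part to drive the catalytic head that makes ATP. Most subunits are encoded in the nucleus, but the core of the membrane parts is encoded in mitochondrial DNA; the mitochondrial genes were not analysed here. An amphibian neurula still draws on yolk and on mitochondria laid down in the egg.

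Some facts about the samples bear on what follows. The transcript of src itself stood at 15.6, 17.3 and 34.6 TPM in morphants against 18.7, 25.8 and 49.2 TPM in controls, lower in the morphant of every set although the groups overlapped, with a log2 difference of -0.44 (SE 0.084, adjusted p = 0.0398 by limma). The call was lost, among other settings, without set 2 (adjusted p = 0.163), without set 3 (0.144), without the block (0.822) and without a filter on low TPM. Over 14 other settings the adjusted p ran from 0.0322 to 0.822. A gene-level value holds both C-SRC and N1-SRC, so it does not measure the loss of the microexon. In morphant sample 1, LOC108645507 and LOC100335111, the second of them annotated as ribosomal RNA, took 4.89% of all TPM, against 0.193 to 0.525% in the other 5 samples. Of 9 muscle marker genes measured, 6 were called lower in morphants, and their summed level was 3843 to 5263 TPM in morphants against 5001 to 6785 TPM in controls. Of 6 neural markers 2 were called lower, of 5 epidermal markers 1 was called lower, of 4 notochord markers 1 was called higher, and none of 4 ciliated cell, 3 endoderm and 2 blood markers tested was called. The shares called over all genes tested were 2.62% higher and 5.87% lower. In RNA from whole embryos, fewer cells of a type and less RNA per cell cannot be told apart. The part of these differences in the results below was not tested.

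The respiratory chain genes were abundant and differed little between n1-src morphants and controls. Their median control level was 123 TPM, against 11.2 TPM over all genes tested. Together they took 2.34, 2.56 and 2.43% of all TPM in morphants 1, 2 and 3, against 2.40, 2.35 and 2.04% in controls 1, 2 and 3, so the groups overlapped and the lowest share was that of control 3. Of the 99 genes tested, 3 rose in morphants (atp5j2, cyc1 and cox17) and none fell. Over all genes tested, 2.62% were called higher and 5.87% were called lower, so the share of respiratory chain genes called higher, 3.03%, was near the background. At an unadjusted p under 0.05, 18 of the 99 (18.2%) were higher and 2 (2.02%), cox11 among them, were lower, against 9.76% higher and 23.4% lower over all genes tested. These counts were 39 higher and 1 lower without set 1, 4 and 3 without set 2, 4 and 3 without set 3, 38 and 0 with each sample scaled to the same median, and 7 and 1 without a mean-variance trend. The shares over all genes tested were not worked out for these settings, so these counts have no background. Scaling to the same median also moved the median log2 difference over all genes tested, from -0.07 to 0.03. Without the block, limma called none of the 99 in either direction, and it called 1 gene in the whole table. At an unadjusted p under 0.05 that fit had 2 of the 99 (2.02%) higher and 0 lower, against 2.01% higher and 6.39% lower over all genes tested.

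The individual differences were small. The 99 log2 differences ran from -0.28 to 0.54, with quartiles at -0.02 and 0.16 and a median of 0.08, whereas the median over all genes tested was -0.07. The sign was positive for 69 genes and negative for 30. In 23 of the 99 genes, or 23.2%, the morphant was higher in all 3 sets, against 17.6% of all genes tested. In 12 genes, or 12.1%, it was lower in all 3 sets, against 38.5% of all genes tested. Counting genes whose groups did not overlap at all, 5 (cox14, cox4i1, cyc1, ndufa2 and uqcrq) had every morphant above every control, against 3.71% of all genes, and 1 (ndufb8) had every morphant below every control, against 11.3% of all genes.

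**Figure D1:**
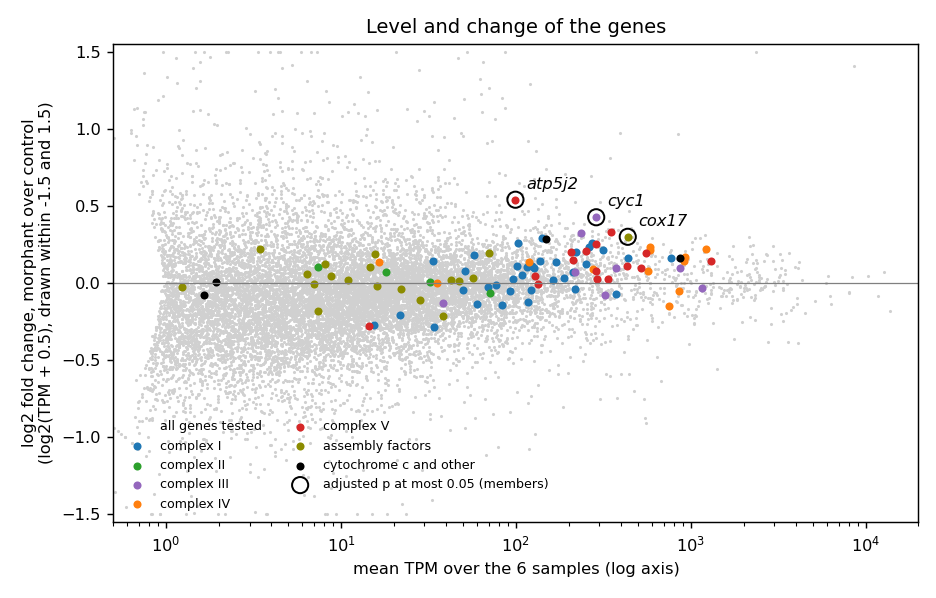
Log2 difference between n1-src morphants and controls (vertical axis, on log2(TPM + 0.5)) drawn within -1.5 and 1.5, against the mean TPM over the 6 samples (horizontal log axis) for the 99 respiratory chain and ATP synthase genes tested, coloured by complex, over all 13382 genes tested in grey. Most coloured points lie at 10 to 1000 TPM and between -0.28 and 0.54, and the 3 genes that rose are named.

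The sets did not move alike. Over the 99 genes the median log2 difference between morphant and control was -0.06 in set 1, 0.09 in set 2 and 0.21 in set 3, and 34, 71 and 77 genes in sets 1, 2 and 3 were higher in the morphant. Over all genes tested the set medians were -0.07, -0.05 and -0.09. The log2 differences of the summed TPM between morphant and control averaged 0.11 ± 0.15 (SD, n = 3 sets), a difference smaller than its spread. LOC108645507 and LOC100335111 took 4.89% of TPM in morphant 1, against 0.325% in control 1. As TPM share a single total, this lowers all other genes on the morphant side of set 1. The set 1 values here and below are not corrected for it, and its part in their sign was not tested. With these rows left out before rescaling, the median over the 99 genes was 0.10, with 74 positive and 25 negative.

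Between sets 1 and 3, the change lay mainly in the controls. From gene to gene, control 3 stood below control 1 by a median of -0.30 on the log2 scale, with 70 of the 99 genes lower, while over all genes tested the same comparison gave 0.10. In the morphants, sample 3 against sample 1 gave 0.02, with 46 of 99 genes lower. Sample 2 against sample 1 gave 0.11 in morphants, with 29 genes lower, and -0.03 in controls, with 57 lower. Sample 3 against sample 2 gave -0.11 in morphants, with 63 genes lower, and -0.20 in controls, with 74 lower. Of the 36 complex I genes, 32 were lower in control 3 than in control 1. Their median for sample 3 against sample 1 was -0.40 in controls, against -0.07 in morphants. For the cytosolic ribosomal protein genes, a list of 77 chosen after values had been seen, sample 3 against sample 1 gave a median of -0.15 in morphants, with 61 genes lower, and of -0.46 in controls, with 73 genes lower. Their median differences between morphants and controls were -0.15, 0.06 and 0.12 in sets 1, 2 and 3. The median of the fitted differences over the 77 genes was 0.01, with 1 gene called higher and 0 lower, against 2.62% and 5.87% of all genes tested.

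Expression level was also compared. Among the 57 respiratory chain genes with a mean of at least 100 TPM over the 6 samples, the median log2 difference was 0.12, with 48 positive and 9 negative. Among the other 1317 genes at that level it was 0.01, with 680 positive and 637 negative. The sets differed here too. In sets 1, 2 and 3 the morphant was higher for 19, 47 and 52 of the 57 genes, with medians of -0.05, 0.13 and 0.29. For the 1317 genes the set medians were -0.03, 0.02 and 0.04. In all 3 sets 18 of the 57 were higher and 4 lower, against 348 and 359 of the 1317.

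Complex I was represented by 36 subunit genes, and none of them passed the test. Their summed level was 5955, 6300.3 and 5658 TPM in morphants 1, 2 and 3, against 6297, 5805 and 4724 TPM in controls 1, 2 and 3. The morphant sum was thus below its control in set 1 and above it in sets 2 and 3. On the log2 scale the sums differed by 0.10 ± 0.17 (SD, n = 3 sets). The median over the 36 genes was 0.07, and the set medians were -0.13, 0.09 and 0.18.

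The 7 nuclear-coded core subunits, which carry the flavin and the iron-sulfur clusters and bind ubiquinone, had a median difference of 0.02. In set 1 all 7 were below their control. Among them ndufs1, an iron-sulfur subunit, gave -0.05 and ndufv1, the flavin-binding subunit, gave 0.11.

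The 29 accessory subunits, which surround the core, had a median difference of 0.10, with 19 positive and 10 negative. The highest was ndufb10, a subunit of the membrane arm, with 186, 145 and 132 TPM in morphants against 179, 117 and 92.3 TPM in controls. Each morphant exceeded its own control although the groups overlapped, and the log2 difference was 0.29 (SE 0.093, adjusted p = 0.0952 by limma). The most abundant gene of this name class was ndufa4, whose protein is found with complex IV in mammals, with 844, 811 and 775 TPM in morphants against 871, 741 and 589.7 TPM in controls. Its morphant was lower in set 1 and higher in the other sets, and the log2 difference of 0.16 had an adjusted p of 0.276.

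A pair of complex I genes were named for groups that did not overlap, after their values had been seen. One was ndufa2, an accessory subunit of the peripheral arm, with 282, 319.9 and 284 TPM in morphants against 263, 271 and 210.0 TPM in controls and a log2 difference of 0.26 (adjusted p = 0.0859 by limma). The other was ndufb8, an accessory subunit of the membrane arm, with 55.4, 59.9 and 56.0 TPM in morphants against 64.5, 63.8 and 60.1 TPM in controls and a log2 difference of -0.14 (adjusted p = 0.177). Neither passed the test.

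Complex II, the enzyme that links the tricarboxylic acid cycle to the chain, was the least abundant. Its 4 genes together had 128, 136 and 119 TPM in morphants 1, 2 and 3, against 151, 127 and 115 TPM in controls 1, 2 and 3. None of the 4 passed the test. The flavoprotein gene sdha had 14.3, 18.8 and 22.4 TPM in morphants against 13.05, 19.9 and 20.0 TPM in controls, a log2 difference of 0.07 with a 95% confidence interval of -0.13 to 0.27. The iron-sulfur subunit gene sdhb had 78.9, 71.2 and 55.5 TPM in morphants against 104, 63.4 and 54.2 TPM in controls, a difference of -0.06 with an interval of -0.34 to 0.21. The morphant was lower in set 1 and higher in sets 2 and 3.

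The membrane anchors of complex II carry haem and the ubiquinone site. The sdhc gene had 7.01, 8.42 and 7.48 TPM in morphants against 7.08, 8.22 and 5.98 TPM in controls, with an interval of -0.14 to 0.35 on the log2 scale. The sdhd gene had 27.3, 37.2 and 33.2 TPM in morphants against 27.2, 35.2 and 34.7 TPM in controls, with an interval of -0.15 to 0.17. The groups overlapped for all 4 genes, and the intervals give the range of differences that these samples allow.

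Complex III held 1 of the 3 genes that rose. This was cyc1, cytochrome c1, the haem protein that hands electrons to cytochrome c. It had 347, 328 and 311 TPM in morphants 1, 2 and 3, against 289, 249 and 202 TPM in controls 1, 2 and 3. Every morphant was above every control. The means were 329 ± 18.1 TPM in morphants and 247 ± 43.5 TPM in controls (SD, n = 3 each), and the log2 difference was 0.43 (SE 0.080, adjusted p = 0.0386 by limma), with 0.26, 0.40 and 0.62 in sets 1, 2 and 3. The call was lost without set 2 (adjusted p = 0.147), without set 3 (0.112) and without the block (0.514), and over 14 other settings the adjusted p ran from 0.0281 to 0.514. It was also lost without a mean-variance trend and without a filter on low TPM.

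The other 7 genes of complex III did not pass the test. The most abundant, uqcr11, a small accessory subunit, had 1047, 1188 and 1182 TPM in morphants against 1080.0, 1194 and 1215 TPM in controls, a log2 difference of -0.03 (adjusted p = 0.731 by limma). The lowest difference was that of uqcrc2, a core protein on the matrix side, with 29.9, 29.5 and 50.9 TPM in morphants against 30.1, 36.9 and 53.2 TPM in controls (log2 difference -0.13, adjusted p = 0.304). The groups overlapped for both genes. In uqcrq, a small ubiquinone-binding subunit named after its values had been seen, every morphant was above every control, with 256, 273 and 253 TPM in morphants against 241, 237 and 159 TPM in controls, and the log2 difference of 0.32 (SE 0.12) had an adjusted p of 0.121. The sums for complex III were 3293, 3661 and 3813 TPM in morphants against 3329, 3471 and 3402 TPM in controls.

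Cytochrome c, encoded by cycs, carries electrons between complexes III and IV and also acts in cell death when it leaves the mitochondrion. It had 946, 856 and 933 TPM in morphants against 872, 768 and 809 TPM in controls. Each morphant was above its own control, by 0.12, 0.16 and 0.21 on the log2 scale, but morphant 2 was below control 1. The difference of 0.16 (SE 0.055) had an adjusted p of 0.112 by limma.

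**Figure D2:**
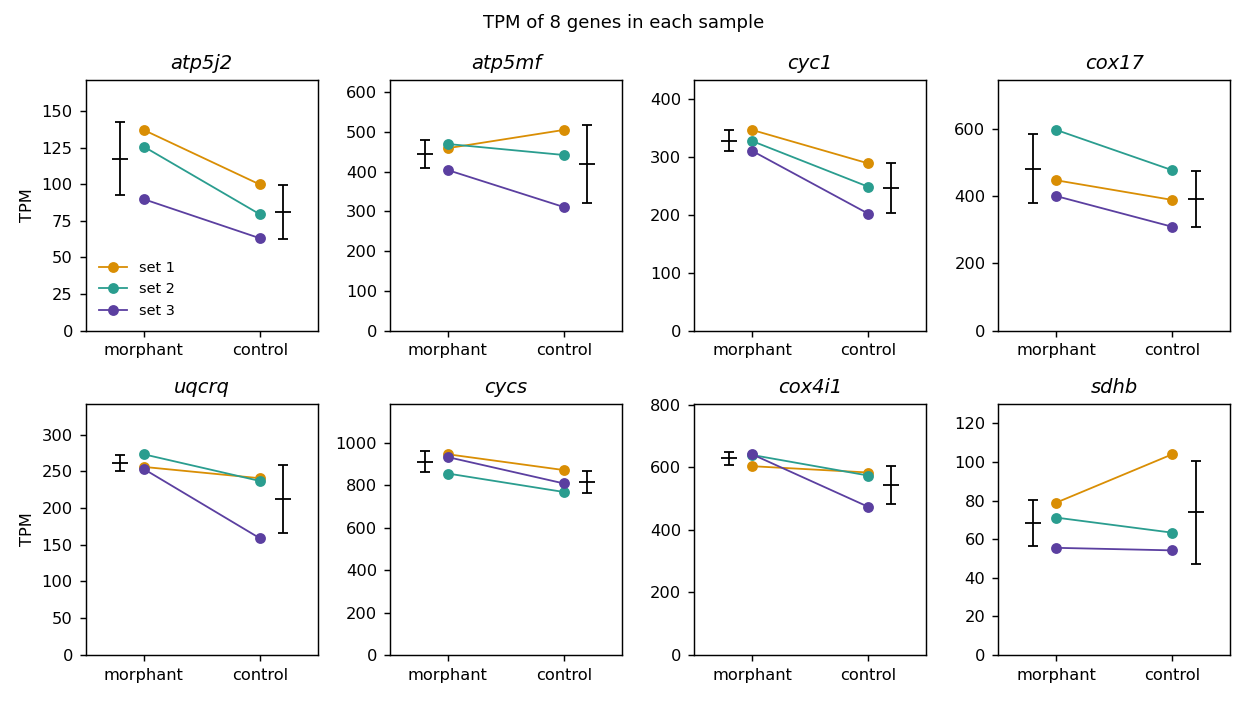
TPM of single genes in each sample, with the 3 n1-src morphants at the left and the 3 controls at the right of each panel, lines joining samples of the same set, and bars at the sides for the mean and SD of each group. The lines of atp5j2, cyc1 and cox17 run lower in the control of every set, and only for cyc1 among these 3 do the groups not overlap.

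None of the 12 complex IV subunit genes tested passed the test. Their sums were 6666, 7504 and 7118 TPM in morphants 1, 2 and 3, against 6921, 6914 and 5950.4 TPM in controls 1, 2 and 3. The median log2 difference was 0.14, with set medians of -0.0028, 0.12 and 0.25, and 9 genes were positive and 3 negative. The highest difference was that of cox5b.1, the gene for a zinc-binding matrix-side subunit, with 608, 654 and 618 TPM in morphants against 641, 552 and 426 TPM in controls (log2 difference 0.24, adjusted p = 0.213 by limma). A second copy, cox5b.2, stood at 12.4 to 19.5 TPM in morphants against 9.46 to 21.0 TPM in controls. The lowest was cox5a, another matrix-side subunit, with 637, 711 and 779 TPM in morphants against 769.8, 825 and 759.7 TPM in controls (-0.15, adjusted p = 0.226). Both genes had overlapping groups.

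Several complex IV subunits exist in mammals as a widespread isoform and one restricted to certain tissues, such as heart and skeletal muscle. In these embryos the widespread forms carried most of the signal. The gene cox7a2 had 1279.7, 1420.1 and 1245 TPM in morphants against 1253, 1177 and 964 TPM in controls (log2 difference 0.22, adjusted p = 0.120 by limma), whereas its muscle partner cox7a1 was listed at 0 in every sample. The gene cox6a1 had 262, 286 and 305 TPM in morphants against 282, 263 and 256 TPM in controls (0.09, adjusted p = 0.470), whereas its muscle partner cox6a2 was listed at 0 in every sample.

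Both cox4 isoforms were present. The widespread cox4i1 had 603, 639 and 642 TPM in morphants against 583, 574 and 474 TPM in controls. Every morphant was above every control, but the log2 difference of 0.21 had an adjusted p of 0.146 by limma. Its partner cox4i2, restricted in mammals mainly to lung, had 101, 141 and 129 TPM in morphants against 95.6, 135 and 107 TPM in controls (0.14, adjusted p = 0.200). The gene cox6b1 had 708, 1189 and 1031 TPM in morphants against 667, 1053 and 871 TPM in controls, above its own control in each set with overlapping groups (0.17, adjusted p = 0.119).

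Complex V held the gene with the highest log2 difference of all 99, atp5j2. It had 137, 126 and 90.0 TPM in morphants 1, 2 and 3, against 99.97, 79.6 and 63.2 TPM in controls 1, 2 and 3. Each morphant was above its own control, but morphant 3 was below control 1. The means were 118 ± 24.7 TPM in morphants and 80.9 ± 18.4 TPM in controls (SD, n = 3 each), so morphants stood at 146% of controls, and the log2 difference was 0.54 (SE 0.064, adjusted p = 0.0204 by limma), with 0.46, 0.66 and 0.51 in sets 1, 2 and 3. The call was lost without set 2 (adjusted p = 0.0965), without set 3 (0.0697) and without the block (0.586), and over 13 other settings the adjusted p ran from 0.0148 to 0.586. It was also lost without a filter on low TPM.

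The name atp5j2 is an older synonym of atp5mf, subunit f in the membrane part of ATP synthase, and the table has a row for each. The atp5mf row had 459, 469.5 and 404 TPM in morphants against 505, 442 and 311 TPM in controls, with a log2 difference of 0.11 (SE 0.10, adjusted p = 0.487 by limma). The atp5j2 row took 23.0, 21.1 and 18.2% of the sum of both rows in morphants, against 16.5, 15.3 and 16.9% in controls. With the rows added together, a treatment chosen after seeing the data, there were 596, 595 and 494 TPM in morphants against 605, 521 and 374 TPM in controls, and the log2 difference of 0.19 did not pass the test (adjusted p = 0.191). How reads were shared between these rows was not tested, so the rise of atp5j2 is that of a row and not of the whole gene.

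The c-ring of ATP synthase, which turns as protons pass, is made in mammals from several genes with the same mature protein. The most abundant was atp5mc3, with 1209, 1553 and 1329 TPM in morphants against 1264, 1369.9 and 1065 TPM in controls (log2 difference 0.15, adjusted p = 0.284 by limma). The row atp5g3, an older name of atp5mc3, had 116, 137 and 137 TPM in morphants against 109.5, 139.6 and 130.1 TPM in controls (0.05, adjusted p = 0.607). The gene atp5mc1 had 104, 145 and 149.8 TPM in morphants against 113, 155 and 130.2 TPM in controls, a difference of -0.01 (adjusted p = 0.966). All had overlapping groups. The lowest value of the complex was that of atp5c1, an older name of the gamma subunit gene atp5f1c, with 7.04, 8.66 and 24.3 TPM in morphants against 7.86, 14.0 and 24.9 TPM in controls (-0.28, SE 0.13, adjusted p = 0.201), while the atp5f1c row itself gave 0.03 at 227 to 367 TPM in morphants against 235 to 333 TPM in controls.

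Taken as a complex, ATP synthase summed to 5379, 5932 and 5679 TPM in morphants 1, 2 and 3, against 5529.7, 5331 and 4539 TPM in controls 1, 2 and 3. The log2 differences of these sums averaged 0.15 ± 0.18 (SD, n = 3 sets), so the difference was within its spread. The median over the 16 rows was 0.13, with 14 positive and 2 negative and set medians of -0.06, 0.12 and 0.33. The 5 rows of the catalytic head and its central stalk, atp5c1 among them, had a median of 0.03. The 11 rows of the membrane part and side stalk, atp5j2 and atp5g3 among them, had a median of 0.15, with 10 positive and 1 negative. These medians count rows of the same gene separately, and medians with such rows added together were not worked out. No test between these parts was made. In the head, the alpha and beta subunit genes atp5f1a and atp5f1b gave 0.03 and 0.10. The highest was atp5f1d, the delta subunit, named after its values had been seen. It had 418, 381 and 366 TPM in morphants against 398, 315 and 232 TPM in controls (0.33, adjusted p = 0.107 by limma).

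**Figure D3:**
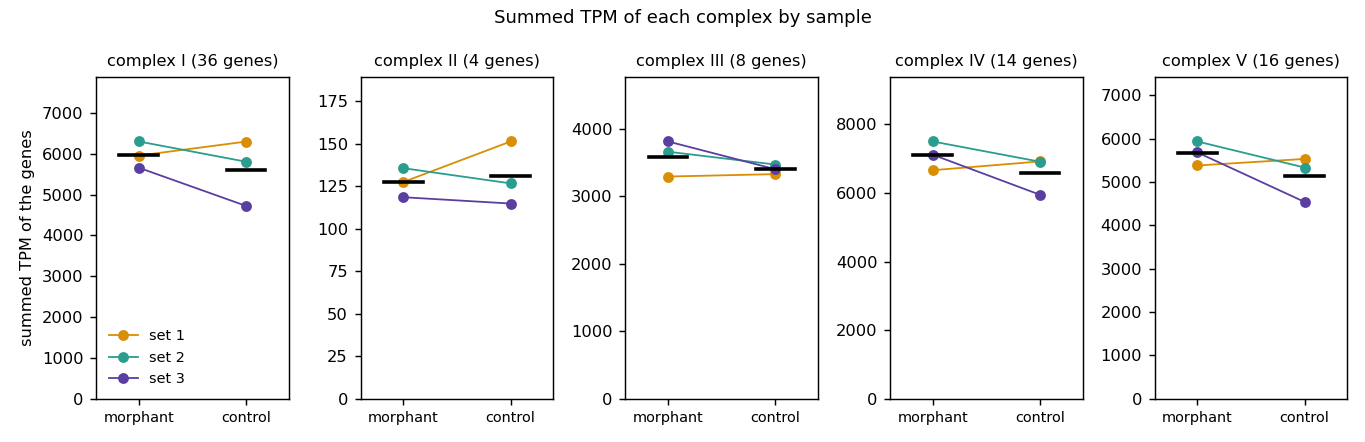
Summed TPM of the subunit genes of complexes I to V in each sample. The n1-src morphants are at the left and controls at the right of each panel, with lines joining samples of the same set. For each of complexes I to V the sum of the morphant is below its control in set 1 and above it in sets 2 and 3. Control 3 has the lowest sum of all 6 samples in complexes I, II, IV and V. The sums are not corrected for the 4.89% of TPM that LOC108645507 and LOC100335111 took in morphant 1, which lowers its other values.

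Among the 20 assembly factors, 19 were tested and 1 passed. This was cox17, the chaperone that brings copper to complex IV. It had 446, 596 and 399 TPM in morphants 1, 2 and 3, against 388, 476 and 308 TPM in controls 1, 2 and 3. Each morphant was above its own control, by 0.20, 0.32 and 0.37 on the log2 scale, and the groups overlapped. The means were 481 ± 103 TPM in morphants and 391 ± 84.0 TPM in controls (SD, n = 3 each), with a log2 difference of 0.30 (SE 0.060, adjusted p = 0.0420 by limma). The call was lost without set 2 (adjusted p = 0.200), without set 3 (0.155) and without the block (0.751), and over 14 other settings the adjusted p ran from 0.0298 to 0.751. It was also lost without a mean-variance trend and without a filter on low TPM.

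The remaining assembly factors were mostly of low level, and their median log2 difference with cox17 included was 0.02. The lowest was cox11, which delivers copper to a catalytic site of complex IV and was named after its values had been seen, with 35.7, 40.6 and 29.7 TPM in morphants against 38.0, 47.4 and 37.5 TPM in controls (-0.21, adjusted p = 0.105 by limma). The highest after cox17 was ndufaf5, a complex I factor also named after its values had been seen. It stood at 3.39 to 4.33 TPM in morphants against 2.48 to 3.98 TPM in controls (0.22, adjusted p = 0.224 by limma). The gene cox14, which acts in the assembly of complex IV, was named for groups that did not overlap, after its values had been seen. It had 69.4, 74.4 and 80.8 TPM in morphants against 68.5, 68.1 and 59.6 TPM in controls. It did not pass the test (0.19, adjusted p = 0.198 by limma).

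The inhibitor of ATP synthase, atp5if1, which blocks ATP breakdown by the enzyme, lay next to the threshold and was named after its values had been seen. It had 167, 181 and 139 TPM in morphants against 147, 151 and 104 TPM in controls. Each morphant was above its own control with overlapping groups, and the log2 difference of 0.29 (SE 0.066) had an adjusted p of 0.0527 by limma. Over 14 other settings the adjusted p ran from 0.0407 to 0.722, and it was called higher with a filter at 5 TPM (0.0478) and with each sample scaled to the same median (0.0407). The other genes outside the classes, atp5s and atp5sl, stood below 3 TPM in every sample.

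**Figure D4:**
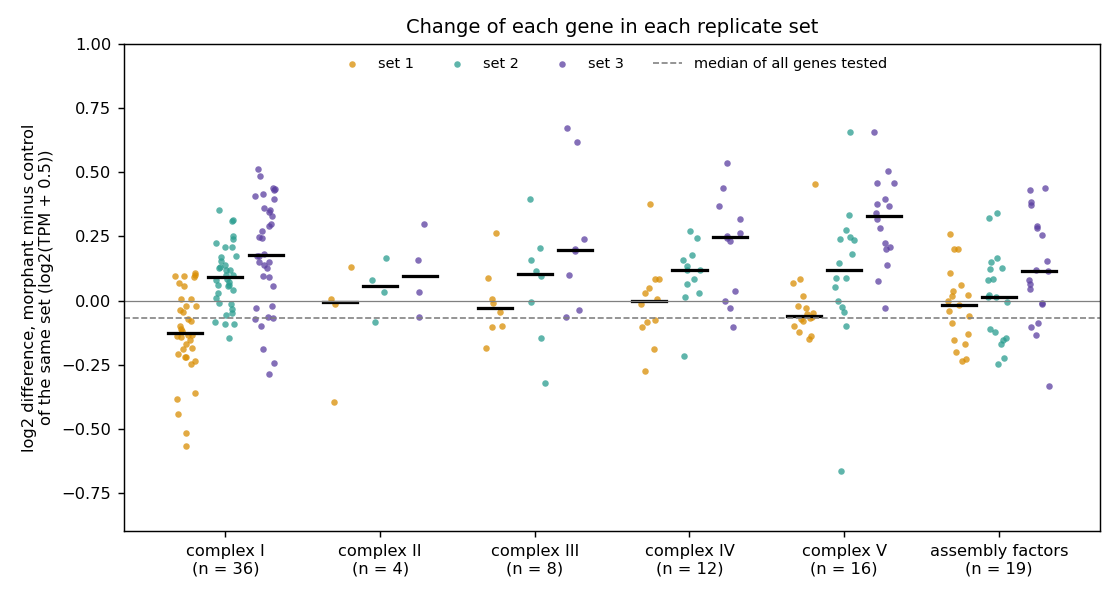
Log2 difference between the n1-src morphant and the control of the same set for each respiratory chain gene, by complex or class, with the median of each set and a dashed line at the median of all genes tested. The medians of set 1 lie at or below 0 in complexes I to V and those of sets 2 and 3 above 0. The set 1 values are not corrected for the 4.89% of TPM that LOC108645507 and LOC100335111 took in morphant 1, which lowers its other values.

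Other genes of mitochondrial energy metabolism were described from lists chosen by name. Their counts stand beside shares of 2.62% called higher and 5.87% called lower over all genes tested. Among 29 assembly factors with other names, 2 rose and none fell, with a median log2 difference of 0.05. One was atpaf2, a chaperone for the alpha subunit of ATP synthase, with 110.5, 124 and 152 TPM in morphants against 84.9, 100.5 and 95.8 TPM in controls. Every morphant was above every control (0.45, adjusted p = 0.0386 by limma). The other was coa5, a complex IV assembly factor, with 38.9, 52.3 and 59.0 TPM in morphants against 32.4, 43.5 and 46.1 TPM in controls, higher within each set (0.29, adjusted p = 0.0444).

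The 72 mitochondrial ribosomal proteins, which translate the mitochondrially coded subunits, had a median log2 difference of 0.12, with 50 positive and 22 negative and set medians of -0.03, 0.10 and 0.20. Only 1 of the 72 rose and 1 fell, against 2.62% and 5.87% of all genes tested. The gene that rose was mrpl42, of the large subunit, with 215, 212 and 164 TPM in morphants against 181, 156 and 94.4 TPM in controls, higher within each set (0.49, adjusted p = 0.0480 by limma). The gene that fell was mrps14, of the small subunit, with 18.7, 19.1 and 19.5 TPM in morphants against 27.5, 25.3 and 24.6 TPM in controls (-0.42, adjusted p = 0.0342), and its groups did not overlap. Among 19 genes for mitochondrial DNA upkeep and biogenesis, none rose and 1 fell, with a median of -0.10. The share called lower was near the 5.87% of all genes tested. The 1 lower gene was ppargc1b, a transcriptional coactivator of mitochondrial genes, with 1.86, 2.02 and 2.12 TPM in morphants against 2.63, 3.41 and 3.73 TPM in controls, without overlap (-0.58, adjusted p = 0.0444).

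Among 18 genes of the tricarboxylic acid cycle and pyruvate entry, none rose and 1 fell, with a median of -0.03. The share called lower was near the 5.87% of all genes tested. The 1 lower gene was suclg2, a subunit of succinyl-CoA ligase, with 15.2, 16.9 and 22.1 TPM in morphants against 19.2, 21.8 and 36.6 TPM in controls, lower within each set (-0.46, adjusted p = 0.0456 by limma). Among 21 carriers, porins and inner membrane proteins, a list that includes atp5if1, none passed the test in either direction, and the median was -0.03. At an unadjusted p under 0.05, 3 of the 21 were higher and 5 lower, against the 9.76% and 23.4% of all genes given above.

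Glycolysis, the cytosolic route to pyruvate, gave the most calls of these lists. Of 19 genes tested, 1 rose and 6 fell, against 2.62% and 5.87% of all genes tested, and the median log2 difference was -0.20. The smallest adjusted p was that of pfkp, a phosphofructokinase, with 39.6, 43.2 and 39.9 TPM in morphants against 66.5, 67.2 and 70.6 TPM in controls (-0.73, adjusted p = 0.0148 by limma). Next were aldoc, an aldolase, with 170.4, 211 and 218 TPM in morphants against 251, 287 and 311 TPM in controls (-0.51, adjusted p = 0.0184), and pgam2, the phosphoglycerate mutase of muscle in mammals, with 8.31, 11.7 and 6.47 TPM in morphants against 34.4, 25.2 and 23.8 TPM in controls (-1.62, adjusted p = 0.0184). For these 3 genes every morphant was below every control. Of the 9 muscle markers given above, 6 were called lower in the same samples. Those not called were actc1 (log2 difference -0.39), myod1 (-0.01) and myf5 (0.06). The part of muscle in the glycolysis values was not tested. The difference between the glycolysis list and the respiratory chain genes was not tested either. Of the 9 genes named from these lists, 4 (mrpl42, pfkp, aldoc and pgam2) were called without set 1, 1 (pgam2) without set 2, 1 (pfkp) without set 3 and none without the block. With each sample scaled to the same median 6 were called, and mrps14, ppargc1b and suclg2 were not. With LOC108645507 and LOC100335111 left out before rescaling 7 were called, and ppargc1b and suclg2 were not. With quantile normalization 6 were called, and mrpl42, ppargc1b and suclg2 were not. Without a mean-variance trend 4 were called (ppargc1b, pfkp, aldoc and pgam2), and without a filter on low TPM none was.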

How the data were processed

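The authors trimmed poly(A)-selected, directional Illumina reads with cutadapt and quantified them with Salmon on version 9.1 of the X. tropicalis transcriptome. They deposited TPM summed per gene for 6 samples, with the mean of each group; versions of these tools are not given in the sources used here. TPM are not counts, so no count model was used. The paper gives an approximate range of reads per sample, but TPM do not hold the depth of a single sample. Genes whose morphant or control mean reached 1 TPM were tested with limma 3.58.1 in R 4.3.3 (log2(TPM + 0.5), lmFit, eBayes with a mean-variance trend), blocked on replicate number, and p-values were adjusted by Benjamini-Hochberg over 13382 genes; an adjusted p of at most 0.05 was called. Same-numbered samples deviated together from their group means (r = 0.61 to 0.73 for the 3 pairs, against -0.57 to -0.17 for other pairs), and the labels give the numbers. The deviations of a gene cancel out within each group. Positive values in the 3 pairs therefore bring negative values elsewhere, which are no separate support for the pairing. The fit was run on data simulated from its own model, with set changes larger than any of the respiratory chain genes. That run therefore does not bear on differences of the size reported here.

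Genes were named if called, if most abundant or at either extreme of their complex (mean of at least 5 TPM), or as cytochromes, complex II subunits, paired isoforms and c-ring genes; from the other lists, called genes if 4 or fewer, otherwise 3. Genes named after their values were seen are marked so, and 1 gene that the rule names is not reported here. Members and lists were chosen with earlier results of these data known, so lists carry no test. Alternatives were another pseudocount, filter, scaling, threshold or trend setting, no block, and each replicate left out. Gene annotation came from RefSeq on another assembly, so no coordinates are given.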

Additional observations from a re-analysis of the deposited data

How the results depend on the processing

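The 3 genes called higher remained 3 with a pseudocount of 0.1 or 1 and with quantile normalization. The count was 4, with atp5if1 added, with a filter at 5 TPM, with median scaling and with the LOC108645507 and LOC100335111 rows left out before rescaling. It was 2 with rows of the same gene summed, 1 (atp5j2) without the mean-variance trend, and 0 without the replicate block, without a filter on low TPM (where no gene of the table was called) or at an adjusted p of at most 0.01. Leaving out a replicate gave 0 to 5, with 0 without replicate 2 or 3 and 5 without replicate 1, when atp5me and ndufb7 were added. Over all 13382 genes tested, 247 were called higher and 310 lower without replicate 1. The counts were 2 and 5 without replicate 2, and 22 and 28 without replicate 3. No respiratory chain gene was called lower in any of these settings, and apart from the 3 called genes the block changed no call among the 99.

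The median log2 difference of the 99 genes ran from 0.01 without replicate 3 to 0.18 with median scaling. Without replicate 3 the median of complex I was -0.01 and that of the assembly factors -0.01. Complex II moved to 0.14 with median scaling and to 0.0901 with quantile normalization, and the assembly factors to 0.12 and 0.11. Over all genes, 350 were called higher and 786 lower (30.8% higher), against 569 and 416 (57.8%) with median scaling, 384 and 402 (48.9%) with quantile normalization and 420 and 634 (39.8%) with the 2 rows left out. Median scaling moved the median of all genes to 0.03, and the respiratory chain genes kept a median 0.07 to 0.23 above that of all genes in every setting. The block, trend and threshold settings cannot change these medians, and scaling each sample shifts both nearly alike. In set 1 alone the medians were -0.06 for the respiratory chain genes and -0.07 for all genes. The cause of the shifts between settings was not tested. With 3 samples a group and no depth in TPM, differences of this size sit near the spread between sets.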
